A study of Mus musculus with 2 samples.

Results

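Villus-tip enterocytes were the absorptive cells of the small intestine that carried most strongly a set of 5 villus-tip genes, Ada, Nt5e, Slc28a2, Enpp3 and Clca4a. They numbered 179 cells, 30 in the Tg library and 149 in the FMTg library, out of 777 enterocytes and 12652 barcodes in both files. The members were selected on measured RNA: enterocytes were barcodes with at least 3000 unique molecular identifiers (UMIs, the tags by which each captured transcript is counted), at most 25% mitochondrial UMIs, at least 1 UMI of the epithelial gene Epcam, none of the leukocyte gene Ptprc, fewer than 5 of the goblet gene Fcgbp, fewer than 3 of the tuft gene Dclk1, and at least 1% of UMIs from Apoa1, Fabp1, Fabp2 and Rbp2. In each of them the summed UMI share of the 5 tip genes was set against that of 5 mid-villus genes (Slc5a12, Pck1, Lct, Slc13a2, Pdzk1) and 5 lower-villus genes (Car4, Ccl25, Reg3a, Aldh1a1, Maoa), each divided by its mean over all 777 cells. A cell was a member where the tip score was the highest, and 1 Tg cell with no UMI of any of these genes was left in no class.

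Enterocytes are born in the crypts, move up the villus over a few days while their gene expression shifts, and are shed from its tip. Cells at the tip are known for purine handling, in which Nt5e (CD73) makes adenosine from AMP outside the cell, the nucleoside carrier Slc28a2 takes it up and Ada deaminates it, and for apolipoproteins and adhesion genes. Mdm2 is the ubiquitin ligase that restrains the transcription factor p53, whose targets arrest the cell cycle or set off apoptosis.

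Both groups were C57BL/6j mice aged 60 days that carried the Cag-CreERTg transgene, a tamoxifen-dependent Cre under a promoter that is active in most cells, and both had been dosed once with tamoxifen (6 mg per 40 g, by injection) 24 hours earlier. Tg was Mdm2+/- and retained Mdm2, and FMTg was Mdm2FM/-, in which the series places loss of Mdm2 and acute p53 activation. Both therefore lack 1 Mdm2 allele. Each group was 1 mouse and 1 library, so no difference between groups has a replicate check and none was tested. All intervals are at 95% and cover counting error only. Fresh small intestine was made into single cells and sequenced by the 10x Genomics 3' protocol. The libraries held 54013005 UMIs over 6270 barcodes in Tg and 49805718 UMIs over 6382 barcodes in FMTg, and 14 barcode sequences occurred in both, among them 1 Tg member, which was also the deepest Tg member.

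The label of villus-tip enterocytes was checked on genes that the tip score did not use. Of 12 further villus-tip genes (Apoa1, which also helped admit a cell, among them), 11 had at least 50 UMIs in the members, and 9 of these 11 were at least 1.5-fold higher in the members than in mid- and lower-villus cells together, in Tg and again in FMTg. Over all 4938 genes measured in the members, 23.9% were that much higher in Tg and 18.2% in FMTg, while 18.2% and 17.7% were that much lower. Apoa4, an apolipoprotein of fat absorption, had log2 ratios of members to other enterocytes of 2.13 in Tg and 1.37 in FMTg, the tip keratin Krt20 1.72 in Tg and 1.17 in FMTg, and the transcription factor Klf4 1.54 in Tg and 1.16 in FMTg. These are descriptions, since the cells were sorted into classes by their own RNA. The summed share of Apoa1, Fabp1, Fabp2 and Rbp2, which the gate held at 1% or more, had a median of 4.70% in Tg members (range 2.10% to 8.85%) and 4.82% in FMTg members (range 1.65% to 9.13%). No cell-cycle gene of 19 and no crypt stem cell gene of 11 reached 50 UMIs.

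Members made up 7.94% of Tg enterocytes (30 of 378, interval 5.42% to 11.1%) and 37.3% of FMTg enterocytes (149 of 399, interval 32.6% to 42.3%). Mid-villus cells took similar shares, 40.2% in Tg and 41.6% in FMTg, and lower-villus cells 51.6% in Tg and 21.1% in FMTg. The counting intervals of the villus-tip share did not overlap between the libraries. They treat cells as independent draws and leave out the spread between mice, which was not measured. Shares were over retained barcodes and not over tissue, so the number of villus-tip cells in the gut was not measured. The share depended on the gates: it was 21.6% in Tg and 55.3% in FMTg with a mitochondrial limit of 50%, 14.4% and 34.0% with a minimum of 1000 UMIs, and 13.8% and 29.3% when each score was divided by its mean within its own library. With a limit of 10% only 4 of 17 Tg and 1 of 7 FMTg enterocytes were members, 23.5% and 14.3%, the reverse order.

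**Figure D1:**
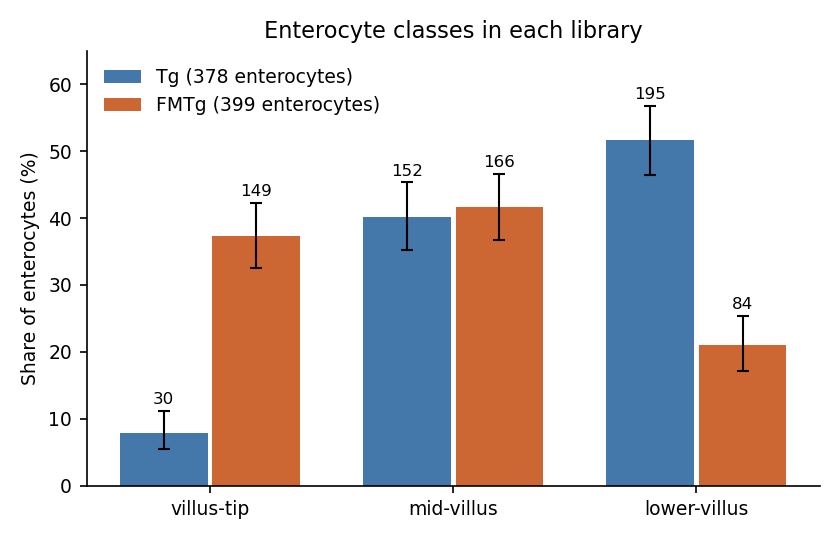
Share of enterocytes (%, y axis) in the villus-tip, mid-villus and lower-villus class of the Tg and FMTg libraries, with cell numbers above the bars and exact 95% binomial intervals as error bars. Villus-tip cells were 7.94% of enterocytes in Tg and 37.3% in FMTg, while lower-villus cells were 51.6% and 21.1%.

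Depth and RNA quality set the precision of what follows. The 30 Tg members gave 437467 UMIs, a median of 13599 per cell (3028 to 44362), and the 149 FMTg members 2835481 UMIs, a median of 15950.0 (3274 to 75885). Numbers of UMIs of a gene given below for Tg and FMTg are not scaled to these totals. A larger FMTg number alone is therefore not a higher level. Mitochondrial RNA took a median of 21.1% in Tg members and 20.2% in FMTg members, close to the 25% limit, and 4 Tg members and 1 FMTg member lay under 10%. Under the 50% limit the villus-tip class held 205 Tg and 1005 FMTg barcodes, of which 188 and 901 lay over 25%. Malat1, a nuclear RNA, had a median share of 1.14% in Tg members (range 0 to 15.6%) and 2.78% in FMTg members (range 0.133% to 16.1%). The part of depth, mitochondrial RNA and Malat1 in the differences below was not tested.

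The 5 tip genes chose the members, so their values describe the selection and support nothing. Levels are in CPM, a gene's UMIs per 1000000 UMIs of the cell or of the summed cells. On mm10 (GENCODE vM21 gene models) Ada lies on chromosome 2 at 163726584 to 163750239 (minus strand), Nt5e on chromosome 9 at 88327197 to 88372092 (plus), Slc28a2 on chromosome 2 at 122426477 to 122461137 (plus), Enpp3 on chromosome 10 at 24772406 to 24842823 (minus) and Clca4a on chromosome 3 at 144952480 to 144975045 (minus). Ada, adenosine deaminase, was found in every member, at 9667 CPM in Tg and 10448 CPM in FMTg over the summed UMIs. Per cell the lowest, median and highest Ada levels were 1084, 6874 and 67055 CPM in Tg and 436, 10073 and 57960 CPM in FMTg, so the libraries overlapped over most of their range. Enpp3, an ectoenzyme that splits extracellular nucleotides, stood at 1372 CPM in Tg and 1317 CPM in FMTg. Slc28a2, the sodium-coupled purine nucleoside carrier, was at 974 CPM in Tg and 1322 CPM in FMTg, and Clca4a, a member of the chloride channel accessory family, at 887 CPM in Tg and 1345 CPM in FMTg. Per cell, Enpp3 had a lowest, median and highest level of 0, 1175 and 2306 CPM in Tg and 221, 1216 and 3336 CPM in FMTg. For Slc28a2 these were 0, 602 and 5762 CPM and 0, 1226 and 5261 CPM, and for Clca4a 0, 144 and 5622 CPM and 0, 807 and 8799.5 CPM. The libraries overlapped for each of these genes, and cells at 0 occurred in both for Slc28a2 and Clca4a.

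Nt5e was the tip gene that differed most between the libraries. It had 46 Tg and 1835 FMTg UMIs, or 105 CPM in Tg and 647 CPM in FMTg, a log2 ratio of 2.62 (2.20 to 3.08). A single Tg cell held 63.0% of the Tg UMIs, and Nt5e was found in 9 of 30 Tg and 91 of 149 FMTg members. With each cell thinned to 3000 UMIs, Nt5e was seen in 20% of Tg and 38.9% of FMTg members, against 6.64% and 7.39% of B cells, defined as barcodes within the same depth and mitochondrial limits with Cd79a and Ptprc and without Epcam (226 and 284 cells with median depths of 3892.5 and 4092 UMIs). Some B cells express Nt5e themselves. For Clca4a the thinned shares were 46.7% and 71.8% of members against 6.64% and 4.93% of B cells, and unthinned they were 63.3% and 87.9% against 8.41% and 8.80%. All 5 tip genes were found in 8 Tg and 84 FMTg members, at least 3 of them in 23 and 147, and only 1 in 2 Tg members.

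**Figure D2:**
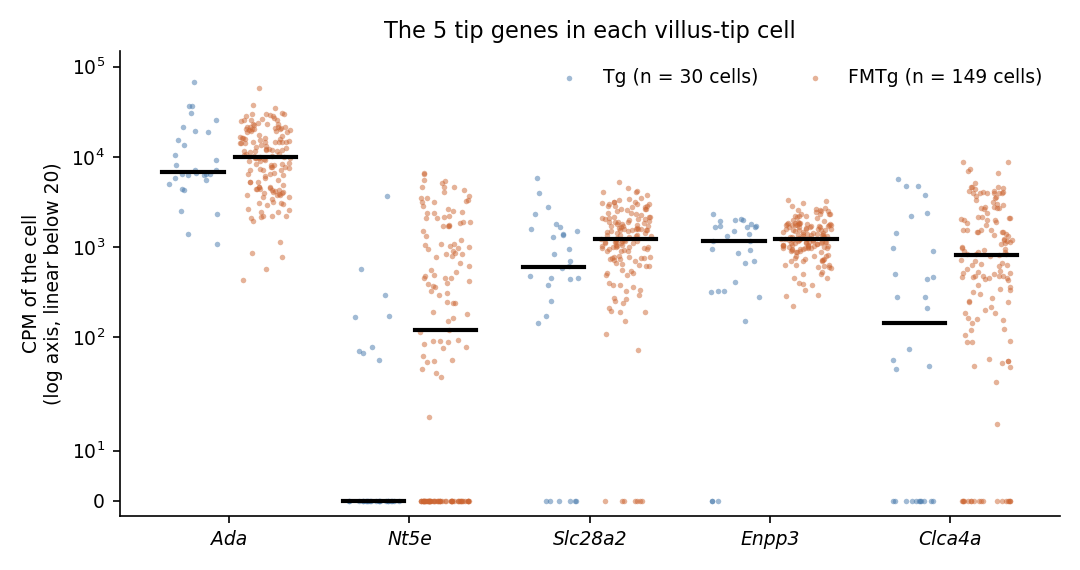
CPM of the 5 tip genes (y axis, logarithmic above 20 and linear below) in each of 30 Tg and 149 FMTg villus-tip cells, 1 point per cell, with the median as a black line. Ada was found in every cell of both libraries, while Nt5e was at 0 in most Tg cells and had a median of 119 CPM in FMTg.

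The tip score had a median of 2.38 in Tg members (0.234 to 14.8) and 3.19 in FMTg members (0.424 to 14.8), in units of its mean over all enterocytes. The boundary was not sharp: 7 Tg and 24 FMTg members led by less than 1.5 times, and 8 Tg and 25 FMTg cells outside were within the same distance. The 3 members closest to the boundary had tip scores 1.03, 1.04 and 1.04 times their next score, and the 3 closest cells outside had 0.999, 0.99 and 0.979 times. Of the mid-villus genes, 2 of 5 in Tg and 3 of 5 in FMTg were at least 1.5-fold lower in members than in the other enterocytes. Pck1, the gluconeogenic enzyme, stood at 61.7 CPM in Tg and 16.6 CPM in FMTg and Slc13a2, a citrate carrier, at 84.6 CPM in Tg and 33.5 CPM in FMTg. Lct (lactase) and the scaffold protein gene Pdzk1 were not that much lower in either library, with log2 ratios to the other enterocytes of -0.23 in Tg and -0.57 in FMTg, and of 0.13 in Tg and -0.48 in FMTg. Of the lower-villus genes Car4, a carbonic anhydrase, had 6 Tg and 1 FMTg UMIs, and Ccl25, a chemokine that draws lymphocytes to the gut, had 11 Tg and 76 FMTg UMIs.

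Other genes set the members apart from mid- and lower-villus cells in both libraries. Genes most set apart in this way were picked for naming, so the size of their ratios describes that choice. Lama3, a laminin chain of the basement membrane anchor, had log2 ratios of members to other enterocytes of 3.57 in Tg and 4.0 in FMTg. Cldn4, a tight-junction claudin, had 5.14 in Tg and 5.36 in FMTg, although most Tg members held no UMI of it, as given below. Pmp22, a tetraspan membrane protein, had 5.65 in Tg and 5.65 in FMTg, Gprc5a, an orphan receptor, 5.86 in Tg and 4.17 in FMTg, and the nucleotidase Nt5c2 2.80 in Tg and 3.26 in FMTg. Of 38 measured junction and adhesion genes, 27 in Tg and 19 in FMTg were at least 1.5-fold higher in members than in the other enterocytes, and 0 and 1 were that much lower.

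Ribosomal protein and respiratory chain transcripts lay the other way. Of 74 ribosomal protein genes, 72 in Tg and 73 in FMTg were at least 1.5-fold lower in members than in mid- and lower-villus cells, and of 75 nuclear genes of oxidative phosphorylation 52 and 66 were. Sis, sucrase-isomaltase of the brush border, had -2.71 in Tg and -2.76 in FMTg, and Lypd8, a secreted antibacterial protein, -2.88 in Tg and -3.03 in FMTg. The antimicrobial lectins Reg3b and Reg3g had -2.39 in Tg and -1.88 in FMTg, and -3.10 in Tg and -1.61 in FMTg. Together Reg1, Reg3a, Reg3b and Reg3g made up a median of 0.751% of UMIs in Tg members and 0.704% in FMTg members, against 14.3% and 9.78% in lower-villus cells. Reg3a is a gene of the lower-villus score, so part of this contrast is built into the selection.

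Between the libraries, the members' UMIs were summed and scaled to their total (CPM), and each gene's ratio is the log2 of FMTg over Tg. Of 4938 genes with at least 50 UMIs, 838 (17.0%) were at least 1.5-fold higher in FMTg and 576 (11.7%) at least 1.5-fold lower, with a median log2 ratio of 0.05. In mid-villus cells 10.3% of 7285 genes were that much higher and 6.67% lower, and in lower-villus cells 9.98% and 7.63% of 7436 genes. In what follows, higher and lower in a count of genes mean by at least 1.5-fold, and these shares are the background for every list. The Tg members are the shallow side, and low genes there have wide intervals. In these bulk sums, fewer cells with a transcript and less of it per cell cannot be told apart. The numbers depended on the UMIs asked of a gene, with 1626 higher and 1412 lower at a minimum of 10 UMIs and 253 and 165 at 200.

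Mdm2 stood at 130.3 CPM in Tg and 230.3 CPM in FMTg, a log2 ratio of 0.82 (0.43 to 1.24). The ratio was alike in the other classes, 0.80 in mid-villus and 0.71 in lower-villus cells. The 3' UMIs do not tell which allele a transcript came from, so Mdm2 RNA does not check the recombination. Thinned to 3000 UMIs, Mdm2 was found in 43.3% of Tg and 53% of FMTg members and in 15.5% and 12.7% of B cells. Trp53, which encodes p53 itself, had only 3 Tg and 14 FMTg UMIs, a log2 ratio of -0.47 (-2.32 to 1.97), so that no difference was detectable at this depth. Mdm4, the partner of Mdm2, stood at 48.0 CPM in Tg and 85.3 CPM in FMTg, a log2 ratio of 0.83 (0.19 to 1.55).

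Several targets of p53 were higher in FMTg members, and none was lower by as much as 1.5-fold. Of 57 listed targets 28 had at least 50 UMIs, of which 10 were at least 1.5-fold higher in FMTg and 0 lower, beside 17.0% and 11.7% of all genes. Mdm2, given above and altered between the groups, is itself on this list and among the 10. Their median log2 ratio was 0.34, against 0.05 over all genes. For the same 28 genes the median was 0.66 in mid-villus cells, with 16 higher, and 0.47 in lower-villus cells, with 13 higher and 3 lower, and the difference between classes was not tested. Summed per cell, the p53 targets had a median of 3619.9 CPM (1626 to 8300.1) in Tg members and 4576 CPM (1948 to 9802) in FMTg members, with ranges that overlapped. The list was chosen with earlier results of these data known, so its direction is not independent evidence.

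Cdkn1a (p21), the inhibitor of cyclin-dependent kinases, was detected in 27 of 30 Tg and 149 of 149 FMTg members. Per cell its lowest, median and highest levels were 0, 547 and 2796 CPM in Tg and 69.6, 807 and 3124 CPM in FMTg, with wide overlap. Over the summed UMIs it stood at 697 CPM in Tg and 885 CPM in FMTg, a log2 ratio of 0.34 (0.17 to 0.52), under 1.5-fold, beside 0.99 in mid-villus cells. Btg2, an antiproliferative gene, stood at 208 CPM in Tg and 372 CPM in FMTg, a log2 ratio of 0.84 (0.53 to 1.17). The apoptosis trigger Pmaip1 (Noxa) had 20 Tg and 402 FMTg UMIs, a log2 ratio of 1.63 (0.99 to 2.36), against 0.78 (0.54 to 1.02) in mid-villus and -0.25 (-0.68 to 0.15) in lower-villus cells. Sesn2, a stress-induced inhibitor of mTORC1, had 2 Tg and 80 FMTg UMIs, 2.63 (0.73 to 5.70), and Zmat3, an RNA-binding p53 target, 3 Tg and 79 FMTg UMIs, 2.02 (0.42 to 4.33). Exoc4, an exocyst subunit on the target list, had 1.76 (0.60 to 3.24).

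Further targets at least 1.5-fold higher were Ccng1 at 0.95 (0.55 to 1.38), Trp53inp1 at 1.11 (0.14 to 2.27) and Phlda3 at 1.30 (0.13 to 2.79). Tnfrsf10b, given below, is on the target list too. Some targets lay near or under no difference, and none was lower by as much as 1.5-fold in members. Fas had a log2 ratio of -0.53 (-1.24 to 0.25) and Bax 0.21 (-0.23 to 0.68). Gadd45a had -0.37 (-0.87 to 0.17) in members, -0.32 in mid-villus and -0.59 in lower-villus cells. Rps27l, a ribosomal protein paralogue whose counts may be shared with its near-identical relatives, had a log2 ratio of 0.22 (0.00 to 0.45), and Cgref1, a growth regulator, 0.00 (-0.20 to 0.20). Among 18 measured pro-apoptotic genes 3 were higher and 3 lower, with Tnfsf10 (the death ligand TRAIL) at 1.49 (0.08 to 3.41), its receptor Tnfrsf10b at 1.27 (-0.36 to 3.6), the executioner caspase Casp6 at -1.02 (-1.48 to -0.55) and cytochrome c (Cycs) at -0.78 (-0.92 to -0.63). Of 13 anti-apoptotic genes 3 were higher and 3 lower, with Mcl1 at 0.29 (0.03 to 0.57). The pro-apoptotic share higher is near the background of 17.0%.

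**Figure D3:**
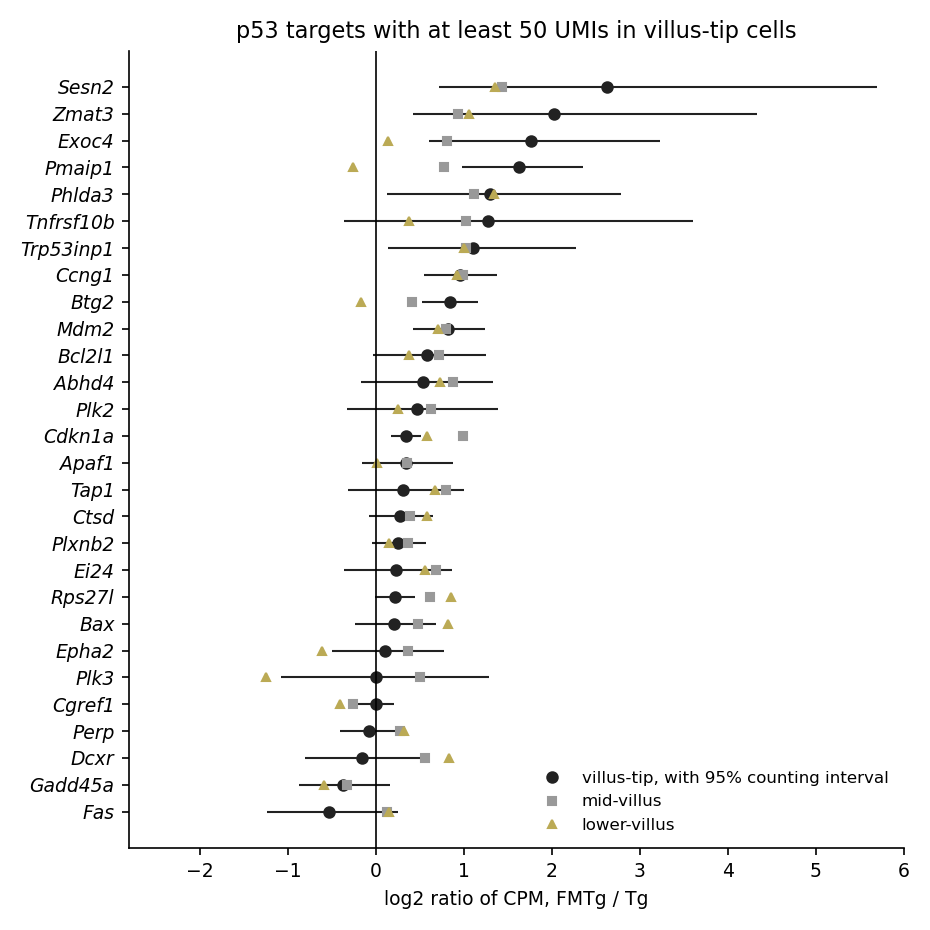
log2 ratio of FMTg to Tg CPM (x axis) for the 28 p53 targets with at least 50 UMIs in villus-tip cells (y axis). Circles are villus-tip cells with 95% counting intervals, squares mid-villus and triangles lower-villus cells. Sesn2, Zmat3, Exoc4 and Pmaip1 lie farthest to the right, and no target lies at or under 1.5-fold lower in villus-tip cells.

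Interferon-stimulated genes differed among themselves. Of 53 listed genes in the files 39 were measured in members, of which 10 were at least 1.5-fold higher in FMTg and 8 lower. The median log2 ratio of the 39 was 0.16, close to that of all genes. Summed per cell, the list had a lower median in FMTg members, with ranges that overlapped. It was 5297 CPM (2300 to 13043) in Tg and 4640 CPM (1660 to 40998) in FMTg. Rsad2 (viperin, an antiviral enzyme) had 3 Tg and 497 FMTg UMIs, a log2 ratio of 4.68 (3.12 to 6.96). Its neighbour Cmpk2, a nucleotide kinase, had 3 Tg and 372 FMTg UMIs, 4.26 (2.70 to 6.54). Ifit2 had 1 Tg and 182 FMTg UMIs, 4.81 (2.32 to 10.12). Ifit1 and Ifit1bl1, which belong with Ifit2 to a family that binds foreign RNA, stood at 112 CPM in Tg and 327 CPM in FMTg, a log2 ratio of 1.55 (1.13 to 1.99), and at 194 CPM in Tg and 543 CPM in FMTg, a log2 ratio of 1.48 (1.17 to 1.82). Ifi27l2b, with the most UMIs of the list, had -0.37 (-0.47 to -0.27), the regulator Irf7 0.36 (0.07 to 0.65) and the ubiquitin-like Isg15 0.53 (0.22 to 0.85). Rsad2 and Cmpk2 are neighbours on chromosome 12 (GRCm38), with starts 12752 bases apart.

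Most UMIs of the genes that stood far above Tg lay in few FMTg cells. In FMTg 20 of 149 members (13.4%, interval 8.40% to 20%) had at least 5 UMIs of Rsad2, Cmpk2 and Ifit2 together, a cutoff chosen after their values were seen. These 20 cells carried 19.6% of the members' UMIs and had a median of 20034 UMIs, against 15703 in the other 129. They held 454 of 497 Rsad2 UMIs, 333 of 372 Cmpk2 UMIs and 176 of 182 Ifit2 UMIs. These genes defined the cells, so those parts follow largely from the cutoff and support nothing. Of genes outside the cutoff, the 20 cells held 615 of 927 Ifit1 UMIs and 1042 of 1540 Ifit1bl1 UMIs. They held only 218 of 937 Irf7 UMIs and 1019 of 4852 Ifi27l2b UMIs. In the other FMTg members Ifit1 was at 137 CPM and Ifit1bl1 at 218 CPM, near the Tg levels of 112 and 194 CPM. Rsad2 was at 18.9 CPM and Cmpk2 at 17.1 CPM in those members, above 6.86 CPM each in Tg, where each had 3 UMIs. Ifit2 was at 2.63 CPM there, against 2.29 CPM in Tg. Isg15 was at 169 CPM in those members, under its 219 CPM in Tg, so its direction turned without the 20 cells. All cells set aside were from FMTg, so FMTg without its highest cells was set against all Tg members. The levels in the other members, this turn among them, describe that choice. No Tg member of 30 reached 5 UMIs, a share with an interval of 0 to 11.6%. The FMTg interval begins at 8.40%, so the intervals overlapped. With only 30 Tg members, whether this share differed was not tested. Such cells were also present in both libraries outside the villus tip, in 10 of 152 Tg and 14 of 166 FMTg mid-villus cells and in 10 of 195 Tg and 2 of 84 FMTg lower-villus cells. Without the deepest Tg member the list had 10 higher and 9 lower genes.

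**Figure D4:**
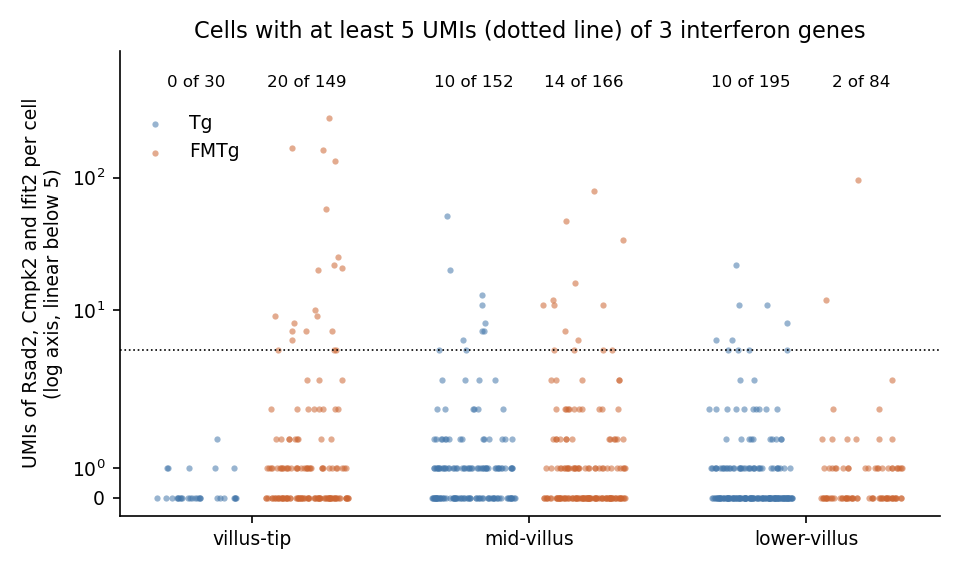
UMIs of Rsad2, Cmpk2 and Ifit2 summed in each enterocyte (y axis, logarithmic above 5 and linear below) by class and library, 1 point per cell, with the number of cells at or above 5 UMIs (dotted line) over each column. In the villus-tip class 20 of 149 FMTg cells and 0 of 30 Tg cells lay at or above the line.

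The promoters of these genes are shown because interferon signals through a short repeated element, the interferon-stimulated response element, which ISGF3 and interferon regulatory factors bind. The motif GAAANNGAAA was searched on both strands (as TTTCNNTTTC on the other) in the 250 bases before the start of RefSeq genes (GRCm38.p6). It occurred in 978 of 32851 promoters (2.98%) and in 19 of 48 promoters of the interferon list (39.6%), which belong to 40 genes that matched by symbol, 18 of them with a match. Among the measured ones it was found for 4 of 8 genes at least 1.5-fold higher in FMTg members and for 8 of 22 others. The stretches below run 5′ to 3′ on the gene's strand, with the motif in capitals, overlapping matches joined, and nothing downstream of the start.
Ifit1, chr19:34640770-34640828, plus strand: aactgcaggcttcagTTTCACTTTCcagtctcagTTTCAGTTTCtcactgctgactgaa
Ifit1bl1, chr19:34602048-34602087, minus strand: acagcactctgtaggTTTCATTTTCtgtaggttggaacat
Rsad2, chr12:26456548-26456587, minus strand: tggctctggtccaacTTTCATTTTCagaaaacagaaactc
Isg15, chr4:156200860-156200911, minus strand: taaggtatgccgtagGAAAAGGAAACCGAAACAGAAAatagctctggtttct
The Ifit1 stretch holds 2 matches and that of Isg15 holds 3 that overlap, while Rsad2 and Ifit1bl1 hold 1 each. Isg15, with the most matches of the 4, had the smallest ratio of the 4 in members. A match is a run of letters and not a measured binding site, and promoters of Cmpk2, Ifit2 and Irf7 had no match in this window.

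Duoxa2, the maturation factor of the hydrogen peroxide-making oxidase Duox2, was among the genes highest in FMTg over Tg. It had 2 Tg and 311 FMTg UMIs, a log2 ratio of 4.58 (2.72 to 7.64), and the ratio was of like size in mid-villus (4.10) and lower-villus cells (4.08). Duox2 stood at 57.1 CPM in Tg and 109.7 CPM in FMTg, a log2 ratio of 0.94 (0.35 to 1.59), with 16 of its 25 Tg UMIs in 1 cell. The genes lie head to head on chromosome 2 (GRCm38), Duox2 at 122279247 to 122298449 on the minus strand and Duoxa2 at 122298900 to 122302885 on the plus strand, with starts 451 bases apart. In FMTg 42 of 149 members (28.2%, interval 21.1% to 36.1%) had at least 5 UMIs of the pair, a cutoff likewise chosen after the values were seen, against 1 of 30 Tg members (3.33%, interval 0.0844% to 17.2%), and these FMTg cells held 23.7% of Rsad2 UMIs with 33.2% of all UMIs. After thinning, Duoxa2 was seen in 24.2% of FMTg and 6.67% of Tg members and in 0.352% and 0% of B cells.

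Of 10 measured antimicrobial genes, Duox2 and Duoxa2 among them, 4 were higher and 2 lower, with a median log2 ratio of 0.36. The other two that were higher were Saa1 and Dmbt1, a secreted scavenger receptor, at 1.02 (-0.08 to 2.37), and the 2 lower were Reg1 and Lypd8. Reg3g stood at 3491 CPM in Tg and 4746 CPM in FMTg, a log2 ratio of 0.44 (0.37 to 0.52), while in mid-villus cells it was -1.12 (-1.14 to -1.11). Reg3b had -0.22 (-0.25 to -0.18) and Reg1 -0.61 (-0.74 to -0.49) in members. Pigr, which carries IgA across the epithelium, had 0.28 (0.14 to 0.42), and the acute-phase gene Saa1 4 Tg and 98 FMTg UMIs. With the mitochondrial limit at 50% Reg1 turned to 0.23 and Saa1 to -0.085. Of 6 MHC class II genes, which present antigen, H2-Aa had 0.78 (0.40 to 1.18), Cd74 0.19 (0.05 to 0.34) and H2-DMb1 -0.94 (-1.70 to -0.12).

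Of 38 junction and adhesion genes 11 were higher in FMTg members, 1 was lower and 26 were neither, with a median log2 ratio of 0.32. Cldn4 stood at 57.1 CPM in Tg and 259 CPM in FMTg, a log2 ratio of 2.18 (1.60 to 2.81) and was found in 6 of 30 Tg and 81 of 149 FMTg members. Cdh1 (E-cadherin), the adhesion molecule of adherens junctions, stood at 231 CPM in Tg and 442 CPM in FMTg, a log2 ratio of 0.94 (0.64 to 1.24), and Cldn7 at 1772 CPM in Tg and 2680.3 CPM in FMTg, a log2 ratio of 0.60 (0.49 to 0.71). The brush-border cadherins Cdhr2 and Cdhr5 had 0.28 (0.17 to 0.40) and 0.38 (0.28 to 0.49). Per cell the summed list had a median of 14234 CPM (2167 to 22486) in Tg and 18624 CPM (10264 to 26028) in FMTg. The Tg range reached lower, and the ranges overlapped. Cldn4 per cell had a lowest, median and highest level of 0, 0 and 894 CPM in Tg and 0, 64.1 and 2029 CPM in FMTg, and after thinning it was seen in 10.0% and 34.9% of members, against 1.33% and 1.41% of B cells.

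Of 22 early-response genes 8 were higher and 0 lower, with a median of 0.39. Klf6 stood at 226 CPM in Tg and 486 CPM in FMTg, a log2 ratio of 1.10 (0.81 to 1.41), Egr1 had 2 Tg and 92 FMTg UMIs, 2.83 (0.93 to 5.89), and Fos and Jun had 0.24 (0.04 to 0.44) and 0.29 (0.06 to 0.52). In mid-villus cells the same list had 10 higher and 0 lower of 23, with a median of 0.41. In lower-villus cells it had 1 higher and 5 lower of 22. With the mitochondrial limit at 50% 4 of 23 were higher and 1 lower in members. The growth-factor list was mixed, with 5 of 16 measured genes higher and 3 lower, beside 17.0% and 11.7% of all genes. Its median was 0.30, and its ratios ran from -1.61 to 2.36. The receptors Egfr and Erbb2 had 1.24 (0.28 to 2.40) and 1.23 (0.39 to 2.21). Smad1, which relays BMP signals, had 3 Tg and 100 FMTg UMIs. The BMP-induced Id3 had -0.69 (-0.97 to -0.39) and Id1 -0.13 (-0.34 to 0.08). Tgm2, a protein cross-linking enzyme, stood at 101 CPM in Tg and 271 CPM in FMTg, a log2 ratio of 1.43 (0.99 to 1.90), and the keratins Krt18 and Krt19 had 1.33 (0.81 to 1.89) and -1.01 (-1.56 to -0.43).

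Of 75 nuclear genes of oxidative phosphorylation, 23 were at least 1.5-fold lower and 0 higher, against backgrounds of 11.7% and 17.0%, and the median was -0.45, beside -0.23 in mid-villus and 0.01 in lower-villus cells. Sdhb, a subunit of complex II, stood at 322 CPM in Tg and 186 CPM in FMTg, a log2 ratio of -0.79 (-1.06 to -0.51), and Cox8a of complex IV at 1015 CPM in Tg and 679 CPM in FMTg, a log2 ratio of -0.58 (-0.73 to -0.43). The complex I subunits Ndufa8, Ndufs8 and Ndufs1 had -1.04 (-1.47 to -0.59), -0.89 (-1.56 to -0.17) and -0.86 (-1.54 to -0.13). Per cell the list summed to a median of 26986 CPM (7203 to 81279) in Tg and 17181 CPM (2797 to 42892) in FMTg. The number lower depended on the members taken: it was 62 with scores scaled within each library and 57 with equal weight per cell, but 10 among members with 3 or more tip genes, 11 with the mitochondrial limit at 50% and 15 without members under 10% mitochondrial RNA. None of the 75 was higher under any of these. Some markers of position along the villus differed between the libraries too. Of 16 further mid-villus genes 7 were lower and 1 higher in FMTg members, with a median of -0.45. Of 11 measured further tip genes 3 were higher and 0 lower, with a median of 0.30. Of 7 measured further lower-villus genes 2 were higher and 2 lower, with a median of 0.04. Summed per cell, the 12 further tip genes had a median of 48504 CPM (4335 to 147183) in Tg and 83348 CPM (28517 to 143439) in FMTg. The part of position along the villus in the oxidative phosphorylation values was not tested. The 13 mitochondrially encoded genes had a median of 0.02, with mt-Co1 at 0.02 (-0.01 to 0.04) and mt-Nd3 at 0.44 (0.37 to 0.51).

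Antioxidant genes shared that direction, with 6 of 20 lower, 0 higher and a median of -0.33. Prdx1, a peroxiredoxin, stood at 594 CPM in Tg and 187 CPM in FMTg, a log2 ratio of -1.67 (-1.88 to -1.45), the glutathione peroxidase Gpx2 at 530.3 CPM in Tg and 241 CPM in FMTg, a log2 ratio of -1.14 (-1.36 to -0.92), and the ferritin chains Fth1 and Ftl1 had -0.72 (-0.76 to -0.68) and -0.62 (-0.72 to -0.52). Fth1 was lower in mid-villus (-0.89) and lower-villus cells (-0.91) too. With members of 3 or more tip genes 3 of 20 antioxidant genes were lower, and with equal weight per cell 11. Gstp1, a glutathione transferase of the xenobiotic list, stood at 107 CPM in Tg and 24.7 CPM in FMTg, a log2 ratio of -2.12 (-2.68 to -1.56).

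Of 41 brush border genes 10 were lower and 1 higher in FMTg members, with a median of -0.25. Sis stood at 222 CPM in Tg and 115 CPM in FMTg, a log2 ratio of -0.94 (-1.27 to -0.60), the glucose and fructose carriers Slc2a2 and Slc2a5 had -1.23 (-1.79 to -0.65) and -1.0 (-1.58 to -0.38), and Naaladl1, a peptidase, -1.27 (-1.58 to -0.95). The glucose carrier Slc5a1, the amino acid carrier Slc6a19 and the alkaline phosphatase Alpi had 0.17 (0.04 to 0.31), 0.24 (0.10 to 0.38) and 0.29 (0.15 to 0.42), each under 1.5-fold. Per-cell sums were alike, 19728 CPM (6412 to 37077) in Tg and 20916 CPM (7488 to 33293) in FMTg. Of 14 genes typical of the proximal intestine 2 were higher and 5 lower, with a median of -0.21, and of 13 distal genes 2 were higher and 3 lower, with a median of -0.12. Of the proximal genes, the calcium-binding S100g stood at 1232 CPM in Tg and 291 CPM in FMTg, a log2 ratio of -2.08 (-2.24 to -1.92) and the iron importer Slc11a2 had -2.22 (-2.76 to -1.67), while the ferric reductase Cybrd1 had 3 Tg and 297 FMTg UMIs, 3.93 (2.37 to 6.22), with 23.9% of its FMTg UMIs in 1 cell. With the mitochondrial limit at 50% the ratio of Cybrd1 was -0.16.

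Lipid-handling genes had no common direction, with 5 of 30 higher, 4 lower and a median of 0.03. The apolipoproteins Apoa4, Apoa1 and Apob had 0.23 (0.20 to 0.25), 0.19 (0.16 to 0.21) and 0.42 (0.35 to 0.49). The cytosolic carriers of fatty acids and retinol, Fabp2 and Rbp2, had -1.14 (-1.19 to -1.08) and -0.63 (-0.67 to -0.59), although both were among the genes that admitted a cell. Abcg5, a sterol exporter, stood at 66.3 CPM in Tg and 129 CPM in FMTg, a log2 ratio of 0.96 (0.41 to 1.56), which turned to -0.049 with scores scaled within each library. Of 19 measured purine genes, Ada, Nt5e, Slc28a2 and Enpp3 of the rule among them, 2 were higher and 3 lower, with Nt5c2 at 1.05 (0.24 to 1.99), the guanine deaminase Gda at -0.06 (-0.16 to 0.05) and Samhd1, which breaks down deoxynucleotides, at -1.11 (-1.47 to -0.72).

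Tip genes were also compared in the cells that the rule left in other classes. Slc28a2 had log2 ratios of 0.44 in members, 2.77 in mid-villus and 1.67 in lower-villus cells, and Clca4a had 0.60, 2.62 and, from 17 Tg and 21 FMTg UMIs, under the 50 asked of a gene, 1.98. The corresponding values of Ada were 0.11, 0.68 and 1.13. Enpp3 went the other way in lower-villus cells, with -0.06, 0.24 and -0.77. Nt5e had 2.62, 3.03 and, from 8 Tg and 23 FMTg UMIs, 3.20. The rule used these genes, so the order of the ratios is a description of the selection.

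**Figure D5:**
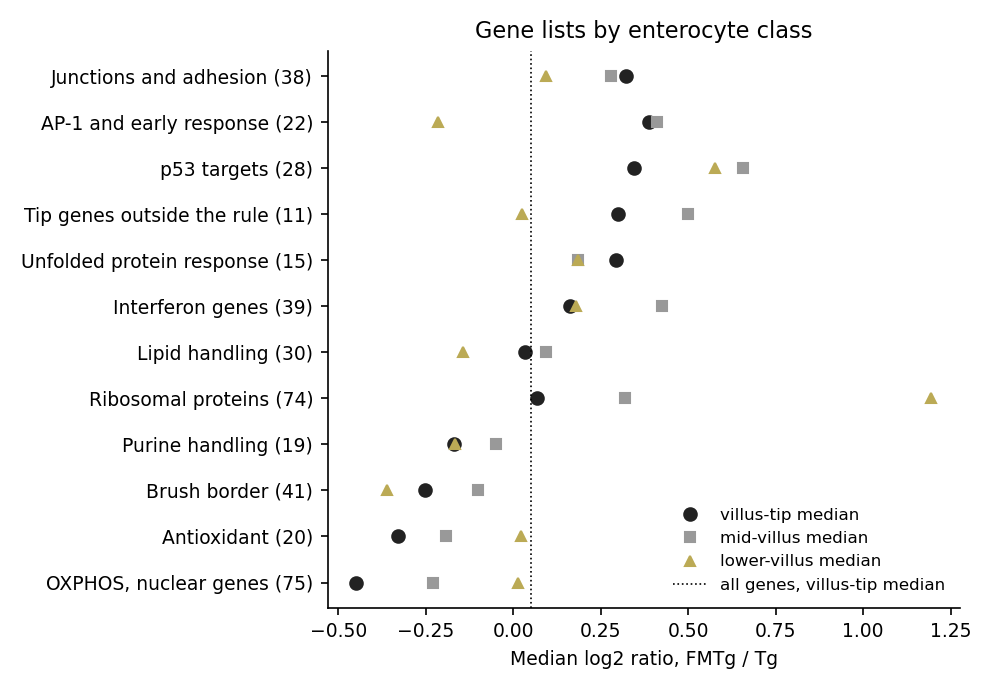
Median log2 ratio of FMTg to Tg (x axis) of 12 gene lists (y axis, with the number of genes measured in villus-tip cells) in villus-tip, mid-villus and lower-villus cells, and the median of all genes in villus-tip cells (dotted line). In villus-tip cells nuclear oxidative phosphorylation genes lay lowest at -0.45 and early-response genes highest at 0.39, while ribosomal protein genes were at 0.07 there and at 1.19 in lower-villus cells.

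Ribosomal protein genes had another pattern in each class. In members 6 of 74 were higher and 5 lower, with a median of 0.07, whereas in lower-villus cells 73 of 75 were higher, with a median of 1.19. With equal weight per cell 1 was higher and 29 lower in members. They made up 0.847% of the summed UMIs of Tg members and 0.922% of FMTg members, and 2.82% and 6.75% in lower-villus cells. Whether this contrast between classes exceeds the spread between mice was not tested.

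Among the genes ranked by ratio with at least 100 UMIs, the highest included Esr1, the oestrogen receptor, with 1 Tg and 178 FMTg UMIs, found in 30 FMTg cells. Tamoxifen binds this receptor, and the CreER transgene of both mice holds a part of one, so whether the UMIs stem from the gene or from the transgene was not tested. B3galt5, a glycosyltransferase, had 1 Tg and 126 FMTg UMIs, 4.28 (1.78 to 9.60), with 3.99 in mid-villus cells. Plxna1, a semaphorin receptor, had 1 Tg and 100 FMTg UMIs, Kpna1, a nuclear import factor, 3 Tg and 100 FMTg UMIs, and Gpx3, a secreted glutathione peroxidase, 3 Tg and 126 FMTg UMIs. Lpar1, a lysophosphatidic acid receptor, had 1.76 (0.50 to 3.41) in members and -0.90 (-1.43 to -0.41) in lower-villus cells, and it turned to -0.26 in members with the mitochondrial limit at 50%. Among the lowest were Gstp1, Sgk1, a salt-handling kinase, at 434 CPM in Tg and 104 CPM in FMTg, a log2 ratio of -2.06 (-2.32 to -1.79), and Cdc42ep2, a Cdc42 effector, at 114 CPM in Tg and 30.0 CPM in FMTg, a log2 ratio of -1.93 (-2.45 to -1.40). Arg2, the mitochondrial arginase, had -1.70 (-2.08 to -1.31), and Tsc22d3, which glucocorticoids induce, -1.58 (-2.17 to -0.97). Sgk1 was lower to a like extent in mid-villus (-1.74) and lower-villus cells (-2.15).

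Goblet and enteroendocrine markers stood out among the markers of other cell types in the members. Stromal markers, 12 genes, had 0 UMIs in Tg and 2 in FMTg members, and 6 hepatocyte markers 1 and 0. Myeloid markers (11 genes) summed to 16.0 CPM in Tg and 3.88 CPM in FMTg, and T-cell markers to 133 and 70.5 CPM, with Cd3e at 0 in Tg. B-cell markers summed to 20.6 and 66.0 CPM, with Cd79a at 0 in Tg, and Igkc had 6 Tg and 145 FMTg UMIs. Goblet markers (9 genes) summed to 1024 and 760.0 CPM, and 10 of 30 Tg and 40 of 149 FMTg members held at least 10 of their UMIs, with single cells at up to 19986 and 25115 CPM. Spdef and Atoh1 were at 0 in Tg, and Zg16, a goblet granule lectin, had -1.41 (-1.65 to -1.18). The part of goblet RNA in the differences was not tested. Enteroendocrine RNA was held by fewer cells, with 16 UMIs in Tg (36.6 CPM) and 4498 in FMTg (1586 CPM). Only 3 FMTg members had at least 10 of them, with 3857, 356 and 238 UMIs, and the next cell had 3. Gip, the incretin hormone, had 6 Tg and 3728 FMTg UMIs, with 99.6% in 1 cell, and Chga and Chgb had 1 Tg and 145 FMTg UMIs, and 2 Tg and 312 FMTg UMIs. Without these 3 cells 804 genes were at least 1.5-fold higher and 593 lower, and 11 of 28 p53 targets were higher. Gip turned to -1.34 without them.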

How the data were processed

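Single-cell RNA of 1 Tg and 1 FMTg small intestine was analysed. The deposited values are UMI counts per gene and barcode, and the submitters' processing notes name CASAVA 1.8.1, Cell Ranger 3.0 and the mm10 genome. No source used here names the release of the gene annotation.

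Barcodes were gated, scored and classed as described above with Python 3.11.15, numpy 2.4.6, scipy 1.17.1 and pandas 2.3.3. UMIs were summed per class and library and divided by the library's class total. With 1 library per group no test was possible, and a p-value over cells was not computed. Ratios have exact conditional binomial intervals, shares Clopper-Pearson intervals, and counts of 0 an upper limit of 3 counts, all at 95% and covering counting error only. Genes needed 50 UMIs over both libraries, and 1.5-fold marked a gene as higher or lower. Named genes were the 15 genes of the rule, Mdm2, Trp53 and Cdkn1a, the 12 highest and 12 lowest ratios among genes with 100 UMIs (leaving out genes with over 25% of the higher library's UMIs in 1 cell), up to 4 most counted and 4 most different genes of each list, the genes most set apart from the other classes in both libraries, and those whose ratio differed most from both other classes. The groups of cells holding interferon or Duox UMIs were chosen after their values were seen. The members and the lists were chosen with earlier results of these data known. Gene positions came from GENCODE vM21, and promoters from RefSeq (GRCm38.p6).

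No doublets were removed from the members reported. Alternatives included doublet removal with Scrublet in scanpy 1.11.5, scaling by TMM (edgeR 4.0.16) and by DESeq2 1.42.0 size factors in R 4.3.3, other gates and gene minimums, and 4 settings added after seeing the data. The ratio script was tested on simulated data.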

Additional observations from a re-analysis of the deposited data

Results flagged for a closer look

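In 8 genes the ratio of FMTg to Tg in villus-tip cells lay on the opposite side of no difference from that in another class, past 1.5-fold in both. None of these differences between classes was tested, since each group was 1 library. Cybrd1, a ferric reductase, had a log2 ratio of 3.93 in villus-tip and -0.67 in mid-villus cells. The other 7 were opposite in lower-villus cells. The hormone gene Gip had 6.58 in villus-tip and -6.53 in lower-villus cells, with 99.6% of the FMTg villus-tip UMIs in 1 cell. In Tg lower-villus cells the enteroendocrine markers, Gip among them, took a median of 0% of UMIs and 2.59% in the highest cell. Esr1 had 4.78 in villus-tip and -1.11 in lower-villus cells, and Lpar1 had 1.76 and -0.90. The chaperone cofactor Dnajb1 had 1.02 and -0.70, and the peroxisomal enzyme Ehhadh 0.88 and -0.63. The keratin Krt19 had -1.01 and 1.17, and the ribosomal protein gene Rpl11 -0.59 and 1.06.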

How the results depend on the processing

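No paired analysis was possible because each group was 1 library. Across 19 other settings, 4 of them chosen after seeing the data, the villus-tip share in Tg (7.94%) was 23.5% with a mitochondrial limit of 10%, 21.6% at 50%, 14.4% with a minimum of 1000 UMIs and 13.8% with scores scaled within each library. In FMTg (37.3%) it was 14.3% at the 10% limit, 55.3% at 50%, 31.3% with a tip score at least 1.5 times the others and 29.3% with scores scaled within each library. The 10% limit left 4 Tg members and 1 FMTg member. The number of genes at least 1.5-fold higher (838) was 30 at that limit, 1626 with a minimum of 10 UMIs per gene and 253 with 200. The number lower (576) was 56 at the 10% limit, 924 with scores scaled within each library, 990 with equal weight per cell, 1412 with a minimum of 10 UMIs and 165 with 200. TMM and DESeq2 scaling gave 994 higher and 470 lower, and 1008 and 463, and moved the median of all genes from 0.05 to 0.11 and 0.12. The interferon median (0.16) was 2.46 at the 10% limit, where 1 gene was measured, and no p53 target was measured there. The p53 median ranged from 0.26 to 0.67 over the other alternatives. Of the genes named, these turned direction: with a 50% mitochondrial limit Cybrd1 (-0.16), Lpar1 (-0.26), Saa1 (-0.085), Aldh1a1 (0.12) and Reg1 (0.23), at 10% Reg1 (0.24), Krt19 (2.06) and Lypd8 (3.35), with scores scaled within each library Abcg5 (-0.049), Chga (-0.53) and Pmp22 (0.11), and Gip with an absorptive minimum of 3% (-1.38) or without the 3 enteroendocrine-marked members (-1.34). The cause was not tested. The 437467 UMIs of the Tg members limit every ratio of a low gene.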
